A study of Mus musculus with 12 samples.

Results

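The genes described here encode the calcium store of the heart muscle cell: Ryr2, Casq2, Trdn, Asph, Jph2 and Hrc on the side of calcium release, Atp2a2 and Pln on the side of calcium uptake, Slc8a1 on the side of calcium extrusion, and Camk2d, a kinase that acts on both sides. They were chosen by symbol as a named list of 10 genes, and all 10 were found in the deposited count tables and were among the 14706 genes abundant enough to be tested. Their levels were measured in the cardiac left ventricle (LV) of 12 FVB mice aged 12 weeks by 3′-seq, an RNA sequencing method that reads transcripts near their 3′ ends. The 4 groups held 3 animals each: Wt offspring of a non-diabetic pregnancy (replicates 25, 42 and 89), Wt offspring of a diabetic pregnancy (replicates 50, 7 and 80), Hif1a+/- offspring of a non-diabetic pregnancy (replicates 14, 32 and 44) and Hif1a+/- offspring of a diabetic pregnancy (replicates 66, 72 and 77). Replicates are named by the animal number in the labels and came from several litters. All dams were Wt for Hif1a and were mated with Hif1a+/- males. Maternal diabetes was induced with streptozotocin, a toxin of the insulin-producing cells. Hif1a encodes the oxygen-regulated subunit of the transcription factor HIF-1, and Hif1a+/- mice carry a heterozygous deletion in every cell type, so that the genotype is not restricted to the heart muscle cell.

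In each heartbeat, calcium entering through the L-type channel opens the ryanodine receptor RYR2, and the sarcoplasmic reticulum releases the calcium that drives contraction. For relaxation the pump SERCA2 (Atp2a2) returns calcium to the reticulum under the restraint of phospholamban (Pln), and the sodium-calcium exchanger NCX1 (Slc8a1) carries the rest out of the cell. Changed amounts of SERCA2, phospholamban and NCX1 are a known feature of failing hearts in many settings.

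The counts assigned to genes numbered between 16132442 and 39812939 in a library. Levels are given as CPM, the counts of a gene scaled to a common library total with the TMM method of edgeR. The CPM of a gene was mainly compared between samples. Genes were combined within a library in sums of levels and in ratios of counts. Hif1a itself, the targeted gene, had 61.5 ± 8.96 CPM in non-diabetic Wt, 55.3 ± 6.37 in diabetic Wt, 85.7 ± 6.01 in non-diabetic Hif1a+/- and 72.3 ± 8.49 in diabetic Hif1a+/- (mean ± SD, n = 3 each). These counts pool the reads of both alleles, and reads from the 3′ end do not show whether a transcript carries the deletion, so they are no check of the genotype. The labels give the animals as female and the study as male. Counts of 4 Y-linked genes exceeded those of Xist in 11 libraries and were below them in diabetic Hif1a+/- replicate 72. The tissue label was borne by the markers as to ventricular muscle, but no marker of the left against the right ventricle was included. The 10 cardiomyocyte genes, such as Myh6 and Tnnt2, summed to between 96130 and 108800 CPM, with overlapping ranges in all groups. The 5 atrial genes summed to between 25.2 and 70.8 CPM. Red cell genes summed to 7322 CPM in non-diabetic Wt replicate 25, which also had the fewest counts, and to between 185 and 1771 CPM elsewhere.

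None of the 10 calcium handling genes passed the threshold on adjusted p between groups. With edgeR's quasi-likelihood test and the study's adjusted p threshold of 0.1, 0 of 10 passed in each of 8 comparisons, as did 0% of all genes tested in each of them. The lowest adjusted p of a calcium handling gene in any comparison was 0.40, for Camk2d between diabetic and non-diabetic Hif1a+/-. DESeq2 and limma-voom with sample quality weights also called 0 of the 10 in each comparison. Over all genes, between diabetic Hif1a+/- and non-diabetic Wt, DESeq2 called 68 of 15002 and limma-voom 2 of 14706. Between diabetic and non-diabetic Hif1a+/- they called 201 of 13951 and 937 of 14706. At such shares, 0 of 10 does not set the calcium handling genes apart. The summed level of the 10 genes ran from 27920 to 33780 CPM across the 12 libraries, and its lowest and highest libraries, diabetic Hif1a+/- replicate 72 and diabetic Wt replicate 50, both came from diabetic pregnancy. In whole tissue, fewer cells of a type and less RNA per cell cannot be told apart.

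**Figure D1:**
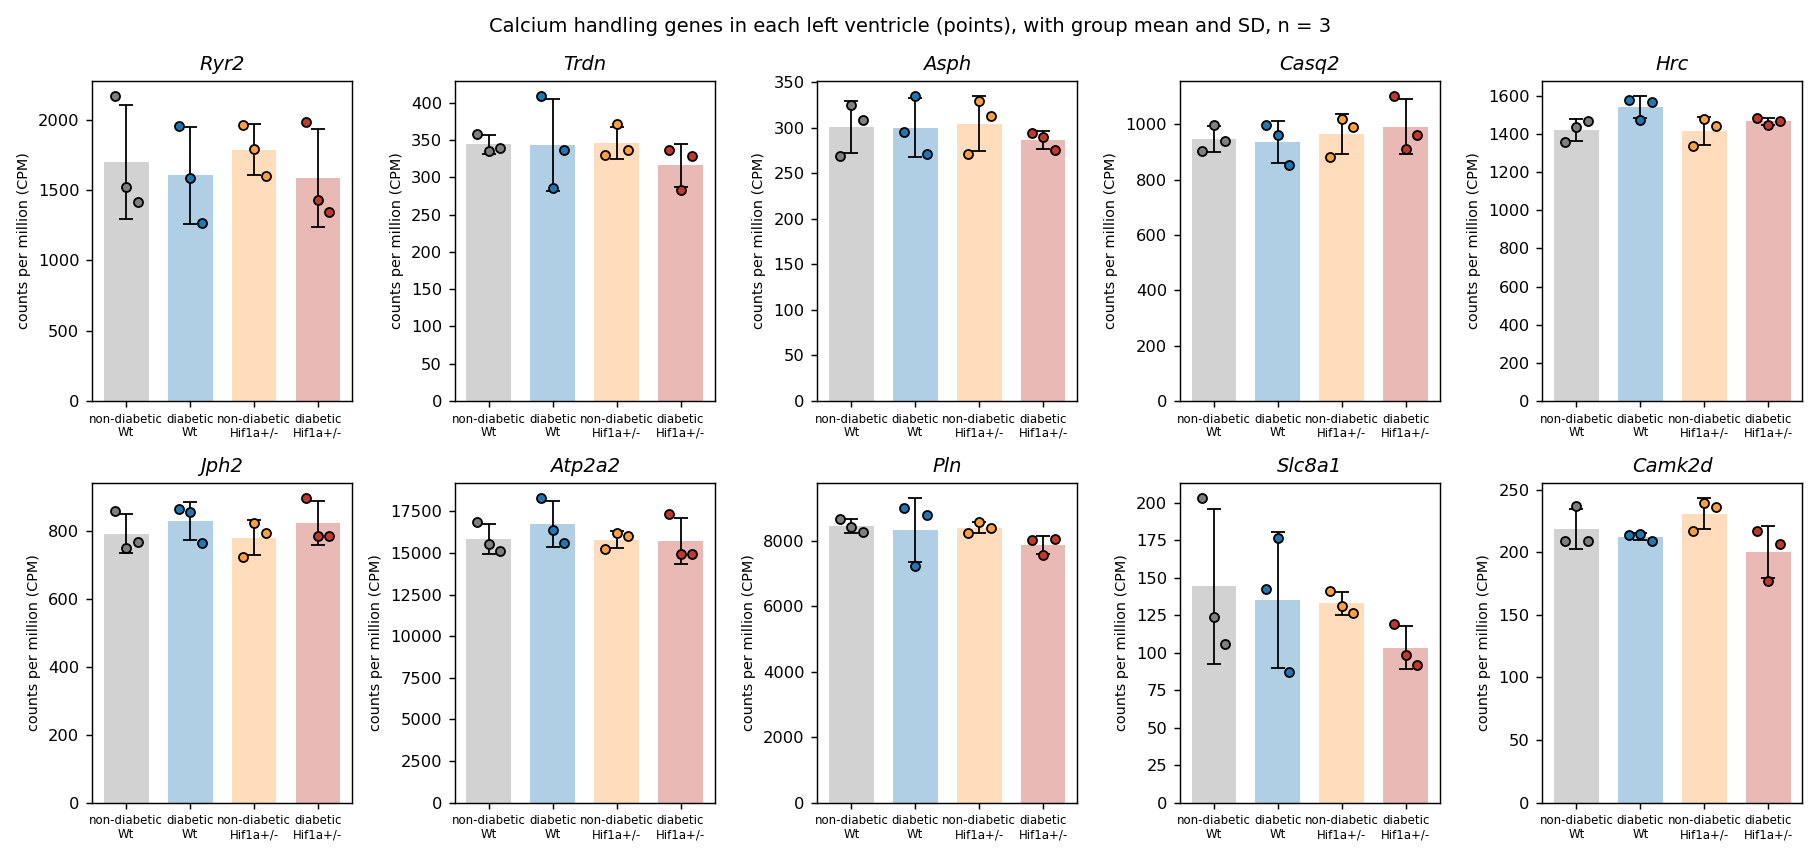
Levels of the 10 calcium handling genes (vertical axis, CPM, starting at 0) in each LV by group. Points are animals, bars are group means and error bars are SD (n = 3). The groups lie close together for each gene, and the points of Slc8a1, from 86.8 to 203 CPM, and Ryr2, from 1267 to 2167 CPM, scatter most.

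At an unadjusted p under 0.05, 1 of the 10 genes was reached in 1 of the 8 comparisons, which was Camk2d between diabetic and non-diabetic Hif1a+/-, where 12.0% of all genes were reached. That count was 0 when diabetic Hif1a+/- replicate 72, non-diabetic Hif1a+/- replicate 32 or 44, or non-diabetic Wt replicate 25 was left out, and 2 with limma-voom or when only the groups compared were fitted. For the other comparisons the count was 0 of 10 in the main fit. Under the alternatives it was 1 in some, such as DESeq2 or limma-voom between diabetic Hif1a+/- and non-diabetic Wt. It was 2 between diabetic Hif1a+/- and diabetic Wt without diabetic Wt replicate 7. The share of all genes reached was 8.85% between diabetic Hif1a+/- and non-diabetic Wt, 2.78% between diabetic and non-diabetic Wt, 0.959% between non-diabetic Hif1a+/- and non-diabetic Wt and 5.35% between diabetic Hif1a+/- and diabetic Wt. It was 11.3% for the mean effect of maternal diabetes over both genotypes, 2.69% for the mean effect of genotype over both pregnancies and 2.52% for the interaction of the pair. The median size of the log2 fold change between diabetic Hif1a+/- and non-diabetic Wt was 0.086 over the 10 genes and 0.14 over all genes. In signed terms 3 genes were higher and 7 lower with a median of -0.086, against -0.0037 over all genes. This split changed with single animals. Without non-diabetic Wt replicate 25 or diabetic Hif1a+/- replicate 77, 5 genes were higher, with medians of -0.032 and -0.019. Without diabetic Hif1a+/- replicate 66, 1 gene was higher, with a median of -0.10.

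The size of change that these data leave possible differed from gene to gene. Between diabetic Hif1a+/- and non-diabetic Wt, the 95% confidence interval of the change ran from -14.2% to 15.1% for Atp2a2, from -19.1% to 7.28% for Pln, from -8.09% to 15.6% for Hrc, from -9.60% to 19.4% for Jph2 and from -9.66% to 21.2% for Casq2. It ran from -18.4% to 11.1% for Asph, from -19.7% to 4.84% for Camk2d and from -23.0% to 9.40% for Trdn. The intervals of Ryr2, from -30.1% to 24.4%, and Slc8a1, from -50.3% to 3.33%, were wider than those of the other 8 genes. In simulated counts for this comparison, in which 50 genes were changed by each fold, a true 1.5-fold difference was called in 54% of cases and a 2-fold difference in 84%. The changed genes were drawn at random from all genes tested, so these are not the rates of Slc8a1 or Ryr2. Planted changes also make the adjusted p threshold easier to pass than in the data, where no gene passed, so the rates may be too high here.

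**Figure D2:**
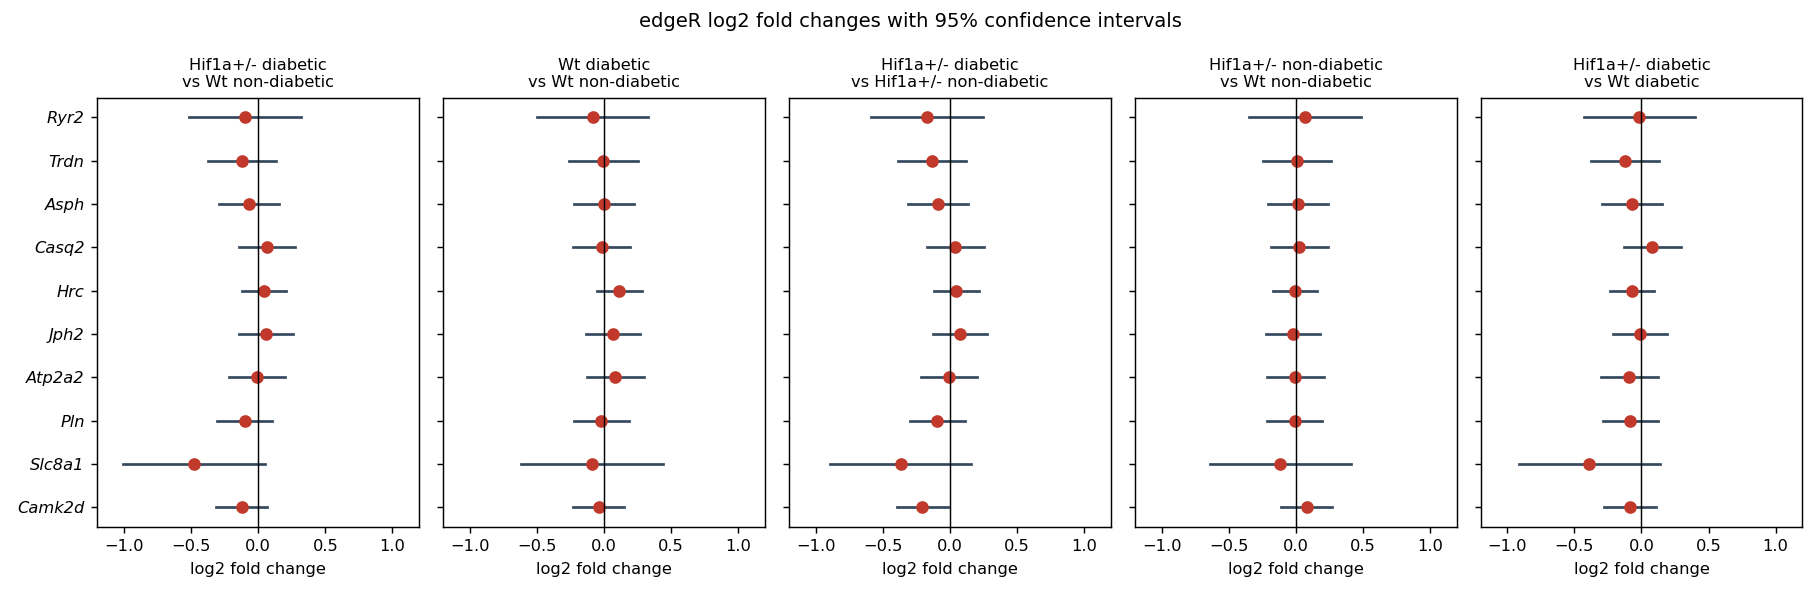
Log2 fold changes (horizontal axis) of the 10 genes in 5 comparisons between groups, as points with lines for the 95% confidence interval (edgeR, n = 3 per group). The line of Camk2d between diabetic and non-diabetic Hif1a+/-, from -0.40 to -0.013, is the only one that does not cross 0, and the lines of Slc8a1 and Ryr2 are the longest.

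On the release side, Ryr2, which encodes the calcium release channel, lies on chromosome 13 (GRCm38, 11553102 to 12106945, minus strand). Its level was 2167, 1520 and 1418 CPM in the non-diabetic Wt animals 25, 42 and 89, and 1958, 1588 and 1267 CPM in the diabetic Wt animals 50, 7 and 80. It was 1963, 1794 and 1602 CPM in the non-diabetic Hif1a+/- animals 14, 32 and 44, and 1982, 1432 and 1345 CPM in the diabetic Hif1a+/- animals 66, 72 and 77. The animals differed within each group, and no pair of groups was without overlap. The log2 fold change between diabetic Hif1a+/- and non-diabetic Wt was -0.10 (edgeR, adjusted p = 0.88). It was 0.11 without non-diabetic Wt replicate 25 and -0.29 without diabetic Hif1a+/- replicate 66, so leaving out 1 animal changed its sign.

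The partners of the channel inside and around the junction varied less. Casq2, the calcium-binding protein calsequestrin of the reticulum lumen, had group means between 937 ± 75.8 CPM in diabetic Wt and 992 ± 98.9 CPM in diabetic Hif1a+/- (SD, n = 3). Trdn (triadin), which ties calsequestrin to the channel, had group means between 316 ± 29.2 CPM in diabetic Hif1a+/- and 346 ± 21.9 CPM in non-diabetic Hif1a+/-. Asph, whose locus encodes junctin beside the enzyme aspartate beta-hydroxylase, ranged from 269 to 334 CPM over the 12 animals, and counts per gene do not separate junctin from the enzyme. For these 3 genes the ranges of all groups overlapped. Jph2 (junctophilin 2), which holds the reticulum against the T-tubule, ranged from 724 to 898 CPM and overlapped between all groups as well.

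Hrc, the histidine-rich calcium-binding protein that interacts with both triadin and SERCA2, was the steadiest gene of the list. It stood at 1361, 1439 and 1471 CPM in non-diabetic Wt, at 1581, 1475 and 1569 CPM in diabetic Wt, at 1336, 1478 and 1443 CPM in non-diabetic Hif1a+/- and at 1486, 1449 and 1468 CPM in diabetic Hif1a+/-. All diabetic Wt animals lay above all non-diabetic Wt animals, although by a margin of only a few CPM between replicates 7 and 89. The log2 fold change was 0.11 ± 0.08 (SE, edgeR adjusted p = 0.9999). Hrc was the only 1 of the 10 genes without overlap in this comparison, against 5.54% of all genes.

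On the uptake side, Atp2a2 lies on chromosome 5 (GRCm38, 122453513 to 122502225, minus strand). Its level was 16860, 15550 and 15100 CPM in non-diabetic Wt, 18310, 16400 and 15620 CPM in diabetic Wt, 15220, 16180 and 16020 CPM in non-diabetic Hif1a+/- and 17330, 14940 and 14920 CPM in diabetic Hif1a+/-. The highest animal exceeded the lowest by a factor of 1.23, and all groups overlapped. The log2 fold change between diabetic Hif1a+/- and non-diabetic Wt was -0.0095 (edgeR, adjusted p = 0.99), with an interval that reached about as far up as down.

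Pln, the inhibitor of SERCA2, was at 8682, 8408 and 8262 CPM in non-diabetic Wt and at 9004, 7220 and 8788 CPM in diabetic Wt. It was at 8248, 8579 and 8379 CPM in non-diabetic Hif1a+/- and at 8012, 7555 and 8055 CPM in diabetic Hif1a+/-. The diabetic Hif1a+/- animals thus lay below every animal of both non-diabetic groups, by a small margin, while diabetic Wt replicate 7 was lower still. The log2 fold change was -0.10 ± 0.09 against non-diabetic Wt (SE, edgeR adjusted p = 0.74) and -0.09 ± 0.09 against non-diabetic Hif1a+/- (edgeR adjusted p = 0.70). Against non-diabetic Wt, Pln was the only 1 of the 10 genes without overlap, where 14.6% of all genes had none. Of the exon bases of Pln on GRCm38, 59.6% are shared with an annotated transcript on the opposite strand, Gm47644. That transcript is not among the genes of the deposited counts. Whether strand was used in the counting is not given in the sources used here.

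Slc8a1, which encodes NCX1, had the widest spread. It was at 203, 124 and 106 CPM in the non-diabetic Wt animals 25, 42 and 89, and at 142, 176 and 86.8 CPM in the diabetic Wt animals 50, 7 and 80. It was at 141, 131 and 126 CPM in the non-diabetic Hif1a+/- animals 14, 32 and 44, and at 119, 98.7 and 91.5 CPM in the diabetic Hif1a+/- animals 66, 72 and 77. The diabetic Hif1a+/- animals lay below every non-diabetic Hif1a+/- animal but overlapped with both Wt groups. Together with Pln this made 2 of 10 genes without overlap between diabetic and non-diabetic Hif1a+/-, a comparison in which 24.4% of all genes had none. Between non-diabetic Hif1a+/- and non-diabetic Wt, and between diabetic Hif1a+/- and diabetic Wt, 0 of 10 genes were without overlap, against 4.81% and 7.94% of all genes.

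The log2 fold change of Slc8a1 was -0.48 ± 0.24 between diabetic Hif1a+/- and non-diabetic Wt (SE, edgeR adjusted p = 0.58), -0.39 ± 0.24 against diabetic Wt (edgeR adjusted p = 0.86) and -0.37 ± 0.24 against non-diabetic Hif1a+/- (edgeR adjusted p = 0.55). These comparisons share the diabetic Hif1a+/- animals. The first value rested on 1 control animal, being -0.15 without non-diabetic Wt replicate 25, the library with the high red cell genes, and -0.66 without non-diabetic Wt replicate 89. The part of red cell RNA or depth in the level of Slc8a1 in that library was not tested. Slc8a1 passed the threshold once (edgeR, log2 fold change -0.46, adjusted p = 0.032). This was between diabetic Hif1a+/- and non-diabetic Wt with genes of low count kept in the fit, where 445 of 27093 genes passed. The effect of maternal diabetes on Slc8a1 was not shown to differ between genotypes (interaction -0.28 ± 0.35 on the log2 scale, edgeR adjusted p = 0.998).

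Camk2d encodes the delta isoform of calcium/calmodulin-dependent kinase II, the main form in heart, which phosphorylates RYR2 and phospholamban. It was at 209, 237 and 209 CPM in non-diabetic Wt, at 214, 214 and 209 CPM in diabetic Wt, at 217, 240 and 236 CPM in non-diabetic Hif1a+/- and at 217, 177 and 207 CPM in diabetic Hif1a+/-. The low animal was diabetic Hif1a+/- replicate 72, the library whose Xist counts exceeded its Y-linked counts. Between diabetic and non-diabetic Hif1a+/- the log2 fold change was -0.21 ± 0.09 (SE, edgeR adjusted p = 0.40). Against non-diabetic Wt it was -0.12 ± 0.09, and -0.04 when replicate 72 was left out.

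The order of the group means was not shared by the list. Diabetic Hif1a+/- had the lowest mean for Ryr2, Atp2a2, Pln, Slc8a1, Trdn, Asph and Camk2d, the highest for Casq2, and the second highest for Jph2 and Hrc. Neighbours in that order overlapped in all cases but 1, which was non-diabetic against diabetic Hif1a+/- for Slc8a1. The SD within groups on the log2 scale was 0.37 for Slc8a1 and 0.28 for Ryr2, larger than in 98.2% and 95%, respectively, of the 1710 genes with a mean of at least 100 CPM. Hrc, at 0.06, was steadier than all but 3.39% of those genes, and the other 7 genes lay between 0.09 and 0.16, around the median of 0.13.

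Ratios within a library do not depend on scaling. The ratio of Pln to Atp2a2 counts, which bears on the balance of the inhibitor and its pump at the RNA level, was 0.534 ± 0.017 in non-diabetic Wt, 0.498 ± 0.061 in diabetic Wt, 0.532 ± 0.0095 in non-diabetic Hif1a+/- and 0.503 ± 0.039 in diabetic Hif1a+/- (SD, n = 3). It overlapped between all groups, unlike the CPM of Pln alone. The ratio of Casq2 to Ryr2 was 0.579 ± 0.140, 0.596 ± 0.082, 0.546 ± 0.087 and 0.636 ± 0.080 in the same order. The ratio of Slc8a1 to Atp2a2 was 0.00900 ± 0.0027, 0.0080 ± 0.0026, 0.0084 ± 0.00076 and 0.0065 ± 0.00038. For the last ratio the diabetic Hif1a+/- animals lay below every animal of both non-diabetic groups, by -0.42 on the log2 scale against Wt and -0.36 against Hif1a+/-. Each difference had p = 0.1 in an exact two-sided permutation test, the smallest p that 3 against 3 allows, and the smallest p adjusted over 15 such tests was 0.75. The difference from Wt was -0.19 without non-diabetic Wt replicate 25.

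**Figure D3:**
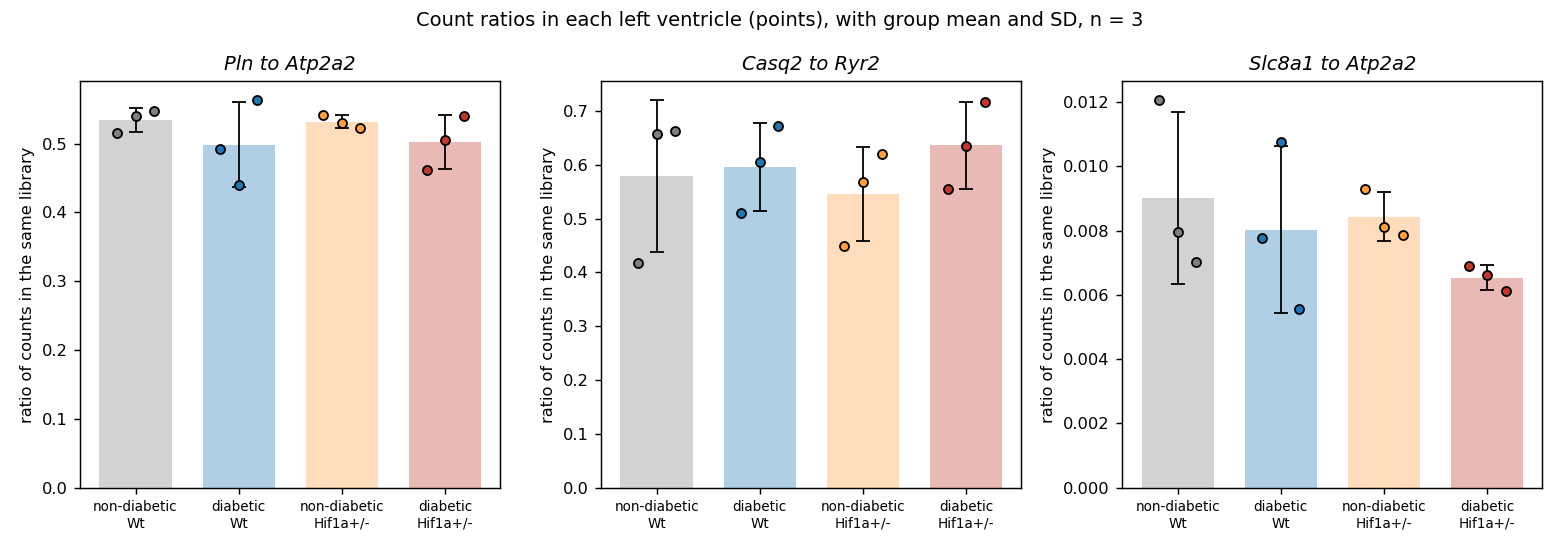
Ratio of counts of 2 genes in the same library (vertical axis, starting at 0) by group, with animals as points, group means as bars and SD as error bars (n = 3). For Slc8a1 to Atp2a2 the diabetic Hif1a+/- points, from 0.0061 to 0.0069, lie below all points of both non-diabetic groups, whereas the other ratios overlap between groups.

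Animals that were high for a calcium handling gene were in part high for others. Over the 12 animals and 45 pairs of genes, the Pearson correlation of log2 CPM had a median of 0.26. The 3 pairs named here were picked after the values were seen, as those with an adjusted p of r under 0.1. Pln and Trdn had r = 0.90 and rho = 0.73 (permutation tests, p = 0.00029 and 0.0085, adjusted over the pairs 0.013 and 0.13), and r was 0.75 without the 2 animals farthest from the median of Pln. Atp2a2 and Jph2 had r = 0.83 and rho = 0.78 (permutation tests, p = 0.00078 and 0.0034, adjusted 0.018 and 0.11), with r = 0.76 without the 2 farthest animals. Ryr2 and Slc8a1 had r = 0.77 and rho = 0.77 (permutation tests, p = 0.0032 and 0.0048, adjusted 0.048 and 0.11), with r = 0.58 without the 2 farthest animals. Within groups, after subtraction of the group means, r was 0.88, 0.88 and 0.82 for these pairs, so the relations were also present among animals of the same group. These r values were not tested and include all 12 animals. The share of other gene pairs with such correlations was not measured, so the relations cannot be called particular to these genes. By rho, 0 of the 45 pairs had an adjusted p under 0.1.

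**Figure D4:**
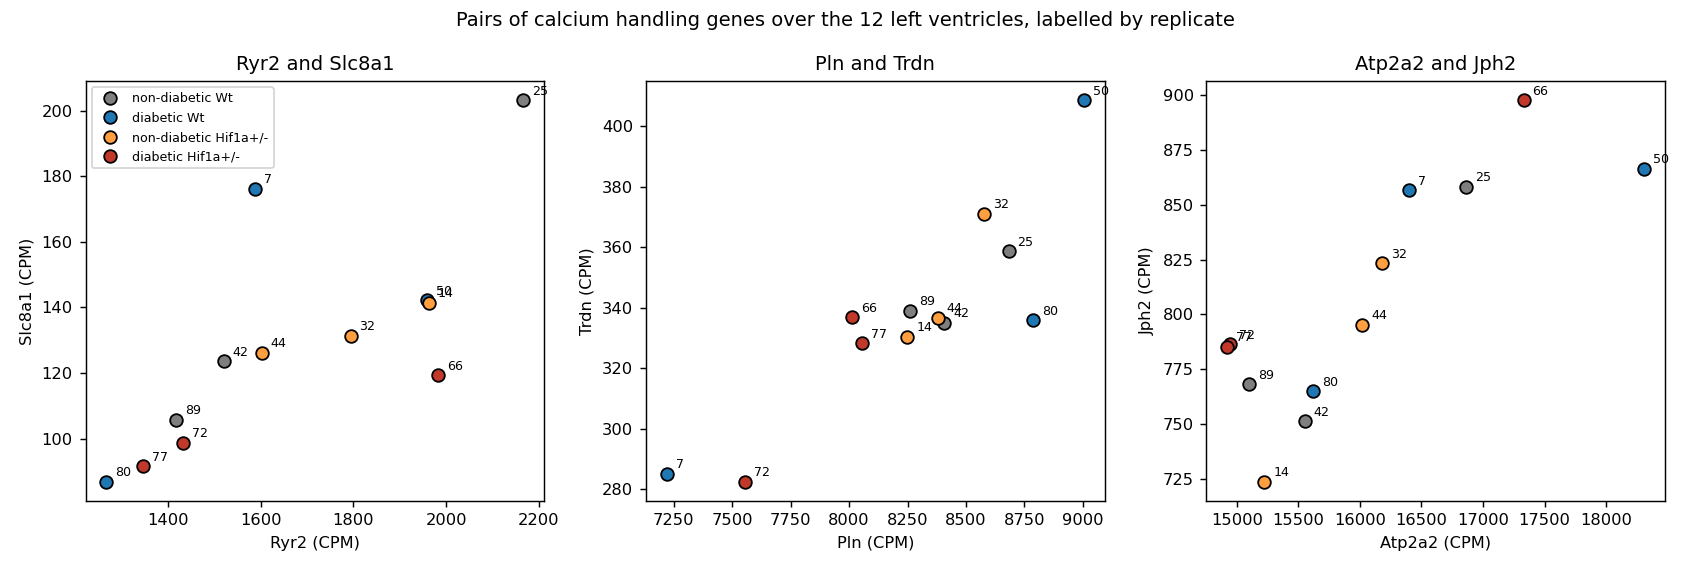
Levels of 3 pairs of genes (both axes in CPM, not starting at 0) in the 12 animals, with colours for groups and numbers for replicates. Slc8a1 rises with Ryr2 across groups, and non-diabetic Wt replicate 25 is highest for both. Diabetic Wt replicate 7 and diabetic Hif1a+/- replicate 72 are lowest for Pln and Trdn.

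The genes most like the list across the 12 animals, measured by the Pearson correlation with the mean standardized log2 CPM of the 10 genes, were Larp1b (0.96), Dnajb4 (0.95), Tcaim (0.95), Rab21 (0.94) and Timm23 (0.94). Ttll5 and Igf2r were most like Ryr2 (0.95 each), and those most like Atp2a2 were Amd1, E2f6 and Ecd (0.95, 0.95 and 0.94). These values describe these libraries only.

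Since the study varied the dose of Hif1a, the promoters of the genes were searched for the core of the HIF-1 binding motif, ACGTG or GCGTG on either strand. RefSeq promoters of GRCm38.p6 were at hand for 7 of the 10 genes (Jph2, Casq2, Camk2d, Hrc, Pln, Ryr2 and Slc8a1). In the 250 bases before the start site the motif was present in 5 of the 8 promoters of these genes (Jph2 has 2, both without it), and 38.6% of 32851 promoters of the same length held it. The first base of the motif lay 146 bases before the start site in Casq2 (-146), at -221 in Hrc, at -42 in Pln, at -244 and -73 in Ryr2 and at -243 in Slc8a1. The promoters of 3 genes are shown, namely Pln, Ryr2 and Slc8a1, the genes of the inhibitor, the channel and the exchanger. All 3 hold the motif, whereas those of Camk2d and Jph2, which hold none, are not shown. Capitals mark the motif on the strand of the gene, or its reverse complement. The sequences run 5′ to 3′ along each gene. They are chr10:53337436-53337685 on the plus strand for Pln, and chr13:12106946-12107195 and chr17:81738388-81738637 on the minus strand for Ryr2 and Slc8a1.
Pln: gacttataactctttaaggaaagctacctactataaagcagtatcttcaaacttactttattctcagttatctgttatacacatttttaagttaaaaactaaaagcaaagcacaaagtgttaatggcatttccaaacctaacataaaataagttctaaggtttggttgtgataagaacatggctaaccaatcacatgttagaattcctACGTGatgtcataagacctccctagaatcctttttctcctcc
Ryr2: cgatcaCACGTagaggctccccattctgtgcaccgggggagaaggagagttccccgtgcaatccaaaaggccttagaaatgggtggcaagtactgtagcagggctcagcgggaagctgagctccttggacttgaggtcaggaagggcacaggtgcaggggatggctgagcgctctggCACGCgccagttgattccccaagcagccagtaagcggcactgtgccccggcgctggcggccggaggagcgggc
Slc8a1: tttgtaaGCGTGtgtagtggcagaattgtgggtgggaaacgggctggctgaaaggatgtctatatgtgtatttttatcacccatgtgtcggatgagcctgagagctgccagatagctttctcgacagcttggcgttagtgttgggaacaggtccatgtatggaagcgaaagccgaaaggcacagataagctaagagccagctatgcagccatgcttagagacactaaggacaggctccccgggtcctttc
A match of these letters is a description of the sequence, and no binding was measured in these samples.

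The neighbours of the 10 genes in the pathway were described by 6 further lists. In each list 0 genes passed the threshold between diabetic Hif1a+/- and non-diabetic Wt (edgeR), where 0% of all genes did. Among 18 tested release channels and partners, 9 were higher and 9 lower, with a median log2 fold change of -0.0047. The 2 with the smallest p were Selenon, a selenoprotein of the reticulum that acts on calcium release (0.25 ± 0.08 SE, edgeR adjusted p = 0.47), and Itpr1, an inositol trisphosphate receptor (-0.22 ± 0.11, edgeR adjusted p = 0.56). Selenon was at 32.5, 34.4 and 35.6 CPM in non-diabetic Wt and at 38.5, 41.9 and 41.9 CPM in diabetic Hif1a+/-, above all 9 animals of the other groups. Of all genes, 14.6% were without overlap between diabetic Hif1a+/- and non-diabetic Wt. This share was 7.94% when diabetic Wt was the other group, and 24.4% when it was non-diabetic Hif1a+/-. The share of genes set apart from all other groups at once was not measured.

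Of 13 regulators and relatives of the pump, 9 were tested, with 3 higher and 6 lower and a median of -0.12. Calr, the luminal calcium-binding chaperone calreticulin, was at 288, 337 and 278 CPM in non-diabetic Wt and at 461, 395 and 441 CPM in diabetic Hif1a+/- (log2 fold change 0.52 ± 0.15 SE, edgeR adjusted p = 0.45). It was also at 367, 413 and 352 CPM in diabetic Wt, above the non-diabetic Wt animals, and at 236, 350 and 368 CPM in non-diabetic Hif1a+/-. Between the Wt groups 5.54% of all genes had no overlap. Mrln, a micropeptide inhibitor of the pump, was near the lower limit with 0.46 to 1.43 CPM (-0.58 ± 0.35, edgeR adjusted p = 0.62).

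Of the sarcolemmal transporters, 15 were tested, with 7 higher and 8 lower and a median of -0.03. Slc8b1, the mitochondrial sodium-calcium exchanger placed in this list as a relative of NCX1, differed by 0.32 ± 0.13 (edgeR adjusted p = 0.53), and Cacna1c, the pore of the L-type channel, by -0.25 ± 0.12 (edgeR adjusted p = 0.56). Of 23 kinases, phosphatases and anchors, 6 were higher and 17 lower with a median of -0.12. The smallest p values belonged to Prkacb, a catalytic subunit of protein kinase A (-0.19 ± 0.07, edgeR adjusted p = 0.50), and Strn, striatin (-0.24 ± 0.11, edgeR adjusted p = 0.56). Akap5, an anchor of protein kinase A, differed most in this list but lay between 0.62 and 7.31 CPM and was picked after its values were seen (1.14, edgeR adjusted p = 0.59).

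Of 12 genes of T-tubule and dyad structure, 8 were higher and 4 lower with a median of 0.07, led by Cav3, the muscle caveolin (0.22 ± 0.12, edgeR adjusted p = 0.59), and Mtm1, a phosphoinositide phosphatase (-0.22 ± 0.12, edgeR adjusted p = 0.59). Of 9 genes of mitochondrial calcium uptake, 5 were higher and 4 lower with a median of 0.0061. Among them Mcub, the inhibitory subunit of the uniporter, was near the lower limit with 0.25 to 1.59 CPM (0.56 ± 0.44, edgeR adjusted p = 0.70). Over all genes tested the median was -0.0037.

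**Figure D5:**
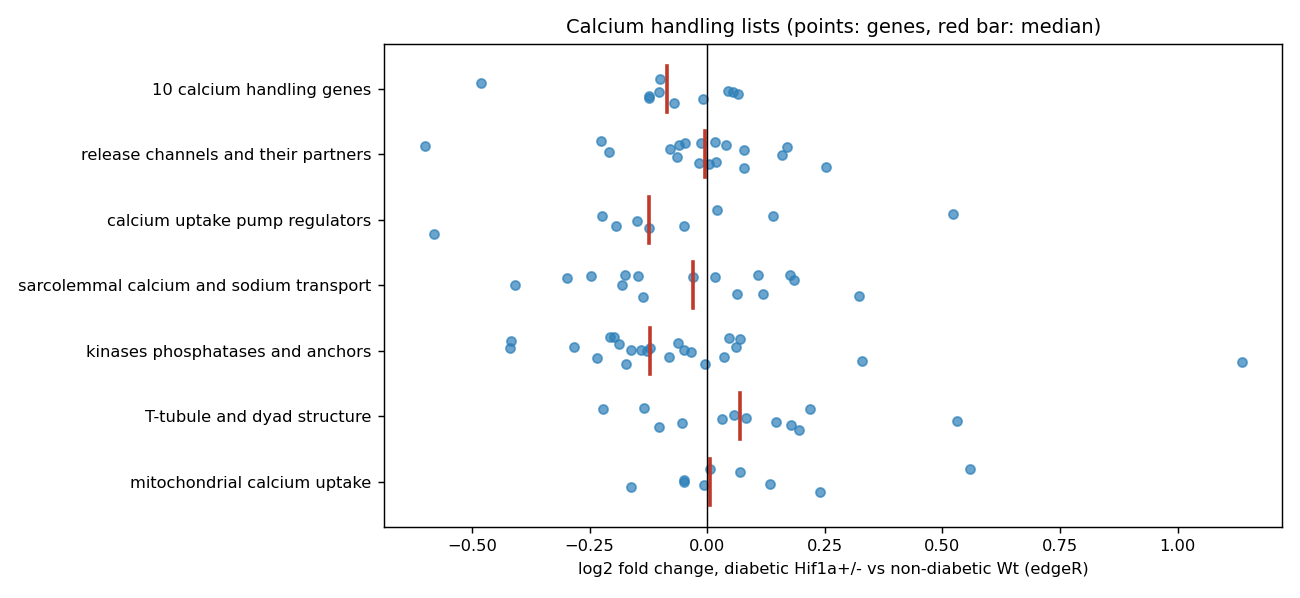
Log2 fold changes between diabetic Hif1a+/- and non-diabetic Wt (horizontal axis, edgeR) for the 10 genes and 6 further lists. Each point is a gene tested, scattered vertically for legibility, and red bars are list medians, which lie between -0.12 and 0.07.

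Markers of other cell types were summed in each library, and 0 of them passed the edgeR threshold between diabetic Hif1a+/- and non-diabetic Wt. The sum of 6 adventitial and epicardial genes was between 173 and 384 CPM there and between 95.6 and 138 CPM in the other groups. Most of this sum came from Pi16, Mfap5 and Cd248, with means of 168, 46.6 and 35.8 CPM in diabetic Hif1a+/- and 61.0, 24.2 and 15.9 CPM in non-diabetic Wt. The epicardial gene Wt1 had means of 6.6 and 8.91 CPM in the same groups, and the means of Msln and Upk3b were 1.33 CPM or less in both. The sum of 6 macrophage genes was between 430 and 639 CPM there and between 216 and 486 CPM elsewhere, and that of 8 fibroblast genes was between 1511 and 2152 CPM against 1301 to 1886 CPM. Endothelial genes summed to between 1485 and 1969 CPM over all libraries, smooth muscle and pericyte genes to between 898 and 1122 CPM and adipocyte genes to between 2.06 and 7.70 CPM. Among all marker lists, Lep was the only gene at 0 in every library of a group, which was diabetic Hif1a+/-. The cardiomyocyte sum was between 98720 and 107200 CPM in diabetic Hif1a+/- and between 99810 and 105700 CPM in non-diabetic Wt. The summed level of the 10 genes over that of the cardiomyocyte markers was 0.296, 0.283 and 0.269 in diabetic Hif1a+/- and 0.319, 0.281 and 0.285 in non-diabetic Wt. The part of the other cell types in the levels of the 10 genes was not tested.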

How the data were processed

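3′-seq libraries were made from the LV RNA of 12 mice and read on an Illumina NextSeq. Per the study's methods and the submitters' processing notes, the authors trimmed reads with Trimmomatic, removed ribosomal and mitochondrial reads, aligned with STAR (2.5.2b) to GRCm38 and counted with HTSeq. The deposited counts are whole reads per gene without normalization. Reads aligned to several places (12.37% to 17.02%) were not counted on any gene, and tallies of unassigned reads were left out here. The authors' normalized values were not used.

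Symbols and coordinates came from the GENCODE annotation of GRCm38 by Ensembl identifier. Counts were analysed with edgeR (4.0.16, R 4.3.3): TMM normalization, filterByExpr (14706 of 27093 genes with a count kept), 1 mean per group, 12 libraries in 1 fit (8 residual degrees of freedom, biological coefficient of variation 13.7%), quasi-likelihood test, Benjamini-Hochberg adjustment over all genes tested and the study's threshold of 0.1. The simulation used the same fit on 14706 genes. The lowest count of any of the 10 genes in a library was 1520, for Slc8a1. Count ratios were compared by exact permutation tests, and correlations by permutation tests with 100000 resamples (scipy 1.17.1) on log2 of CPM plus a pseudocount of 1. Besides the 10 genes, the text names the 2 genes of smallest p in each pathway list between diabetic Hif1a+/- and non-diabetic Wt, the 5 genes most like the list mean, the 3 most like Ryr2 and Atp2a2, markers and Hif1a. Of the genes these rules name, 2 are not reported here. The genes and lists were chosen with earlier results of these data known. Alternatives were DESeq2 (1.42.0), limma-voom with sample quality weights (limma 3.58.1), DESeq2 size factors, other filters, only the groups compared, a threshold of 0.05 and leaving out each library.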

Additional observations from a re-analysis of the deposited data

How the results depend on the processing

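Of 149 counts of calcium handling genes called under the alternatives, 148 were 0. The exception, with no filter on low counts, was 1 gene between diabetic Hif1a+/- and non-diabetic Wt, which was Slc8a1 (-0.46). There 445 of 27093 genes passed. Many of the 148 counts could only be 0, because the same setting called 0 of all genes. A threshold of 0.05 could call none where 0.1 had called none. The counts also share the same 12 libraries, so their number is no measure of how steady the result is. All genes called, 0 with edgeR in each comparison, rose with DESeq2 to 68 between diabetic Hif1a+/- and non-diabetic Wt, 4 between diabetic and non-diabetic Wt, 201 between diabetic and non-diabetic Hif1a+/-, 1 between non-diabetic Hif1a+/- and Wt, 24 between diabetic Hif1a+/- and diabetic Wt, 203 for the mean effect of diabetes and 7 for that of genotype. With no filter the counts were 445, 129, 592, 33, 220, 593 and 77 in that order, and 78 for the interaction. With limma-voom they were 2, 937 and 1 for diabetic Hif1a+/- against non-diabetic Wt, non-diabetic Hif1a+/- and diabetic Wt, and 39 for the mean effect of diabetes. With only the groups compared, 101 genes passed between diabetic and non-diabetic Hif1a+/-. Leaving out a library gave 0 to 1, 0 to 38, 0 to 2, 0 to 21, 0 to 2 and 0 to 1 genes for diabetic Hif1a+/- against non-diabetic Wt, non-diabetic Hif1a+/- and diabetic Wt, the mean effects of diabetes and genotype, and the interaction. The 38 came without replicate 72 and the 21 without diabetic Wt replicate 50. The causes were not tested.

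Between diabetic Hif1a+/- and non-diabetic Wt, leaving out a library moved the log2 fold change across 0 for Ryr2 (-0.29 to 0.11), Atp2a2 (-0.084 to 0.041), Casq2 (-0.017 to 0.13), Jph2 (-0.011 to 0.12) and the ratio of Casq2 to Ryr2 (-0.062 to 0.27). Atp2a2 was at 0.0066 with no filter. Pln, Slc8a1, Trdn, Asph, Camk2d and Hrc kept their sign. No paired analysis was possible because the labels give no replicate number shared between groups. Counting error was not separated from the spread between animals.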
